A study of Homo sapiens with 9 samples.

Results

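The genes described here are the nuclear-encoded genes of oxidative phosphorylation, chosen by name and not by any measured value. The members are the protein-coding rows of the deposited table whose symbol starts with NDUF, UQCR or ATP5, is COX followed by a digit, or is SDHA, SDHB, SDHC, SDHD or CYC1. They number 108 of 60829 rows, and 104 of them had enough reads to be tested. The name rule takes subunits and assembly factors alike, so the members were sorted by role into 80 subunits of complexes I to V and 17 assembly factors. The other 11 are 7 tissue-restricted copies or paralogues of complex IV subunits, the inhibitor ATP5IF1, the supercomplex factor COX7A2L and 2 readthrough genes. UQCRHL, an intronless copy of UQCRH, and ATP5MGL were left among the subunits of complexes III and V. They averaged only 10.9 and 21.0 normalized counts.

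Total RNA was sequenced after ribosomal RNA depletion from H1 cells, a long-established human embryonic stem cell line. The 4 control libraries come from clone chrX-ctrl_H1 (genotype label WT) and the 5 knockout libraries from clone chrX-KO_H1, which carries a knockout of HERVHlin on chromosome X. Each genotype is 1 clone, and its libraries are successive passages that the design text calls technical replicates while the titles call them biological, so p-values measure only the spread between passages. Both clones grew in mTeSR medium on vitronectin with no drug named, although a treatment label on every library reads "differentiated cells". A difference between clones cannot be told apart from clonal variation.

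Oxidative phosphorylation makes ATP at the inner mitochondrial membrane. Complexes I and II pass electrons from NADH and succinate to ubiquinone, complex III hands them on through cytochrome c to complex IV, which reduces oxygen, and complex V, the ATP synthase, spends the proton gradient that complexes I, III and IV build. Nearly all subunits are encoded in the nucleus and a few core ones in mitochondrial DNA, so the 2 sets must be assembled together. Primed human pluripotent stem cells carry the whole pathway while drawing much of their ATP from glycolysis.

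Libraries held 19838682 to 31192630 recovered reads. Protein-coding rows took 26.3% to 50.8% of them, most in control 3, and mitochondrial transcripts 0.61% to 3.15%. Of the 3 rows marked in the table as the knocked-out feature, gene.human_00015544 held 1316 to 3935 normalized counts in control libraries and 25.9 to 73.0 in knockout libraries (a log2 difference of -5.49, SE 0.38, with limma adjusted p = 0.00018). In gene.human_00001528 the knockout libraries fell to between 68.0 and 169 normalized counts, against 312 to 1036 in the controls (limma adjusted p = 0.016), and the third marked row did not pass (limma adjusted p = 0.44). All 8 pluripotency markers were present, with a summed level of 31378 to 77115 normalized counts. The 8 mesendoderm and endoderm markers, 5 of 6 neural, 5 of 6 muscle and 3 of 7 fibroblast markers averaged under 50 normalized counts each, and none was at 0 in every library.

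No oxidative phosphorylation gene differed between the clones in limma at an adjusted p under 0.05, against 150 of the 27777 rows tested (0.54%). Each fold change is knockout over control on the log2 scale, and log2 difference is used for the same quantity. The smallest adjusted p of a member was 0.17 in limma, for ATP5F1E. At an unadjusted p under 0.05, 4 of the 104 members differed (3.85%), against 8.63% of all tested rows. All 4 were lower in the knockout clone, where 5.05% of all rows were lower at that level. They are ATP5F1E, NDUFA4L2, NDUFB9 and the readthrough gene NDUFC2-KCTD14. Single libraries moved this count, which was 15 without control 4 (12.9% of all rows differed in that fit) and 14 without knockout 3 (8.99%), all lower. It was 8 with protein-coding scaling (8.73%) and 9 after quantile normalization (9.23%). Called counts were also 0 in edgeR's quasi-likelihood test, which called 0.544% of rows, and 1 in DESeq2, which called 2.13% of rows (1.62% lower), the member being ATP5F1E, lower in the knockout clone. With the replicate number as a block, limma called 43 rows (0.155%) and again no member. Knockout 5 has no partner in the block and adds nothing to those fold changes. In that fit 19 members reached an unadjusted p under 0.05, 18.3% against 11.2% of all rows. All 19 were lower, where 6.7% of all rows were, and their smallest limma adjusted p was 0.12.

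Most members nevertheless measured slightly lower in the knockout clone. The log2 fold change was below 0 for 94 of 104 members (90.4%), against 49% of all tested rows and 63.4% of tested protein-coding rows. The median log2 difference was -0.27 for the members, 0.01 for all tested rows and -0.09 for protein-coding rows. The tilt was smaller without control 3. In that fit 58 of 104 members lay below 0 (55.8%), against 46.4% of protein-coding rows, and the members' median was -0.04. Leaving out knockout 3 instead moved the median the other way, to -0.40, and leaving out control 4 to -0.41. With libraries scaled by the median ratio over protein-coding rows alone, the members' median was -0.16 and that of protein-coding rows 0.01, with 85 members below 0 (81.7%). After quantile normalization 74 members were below 0 (71.2%) and their median was -0.09. In bulk RNA, fewer cells of a type and less of an RNA per cell cannot be told apart.

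**Figure D1:**
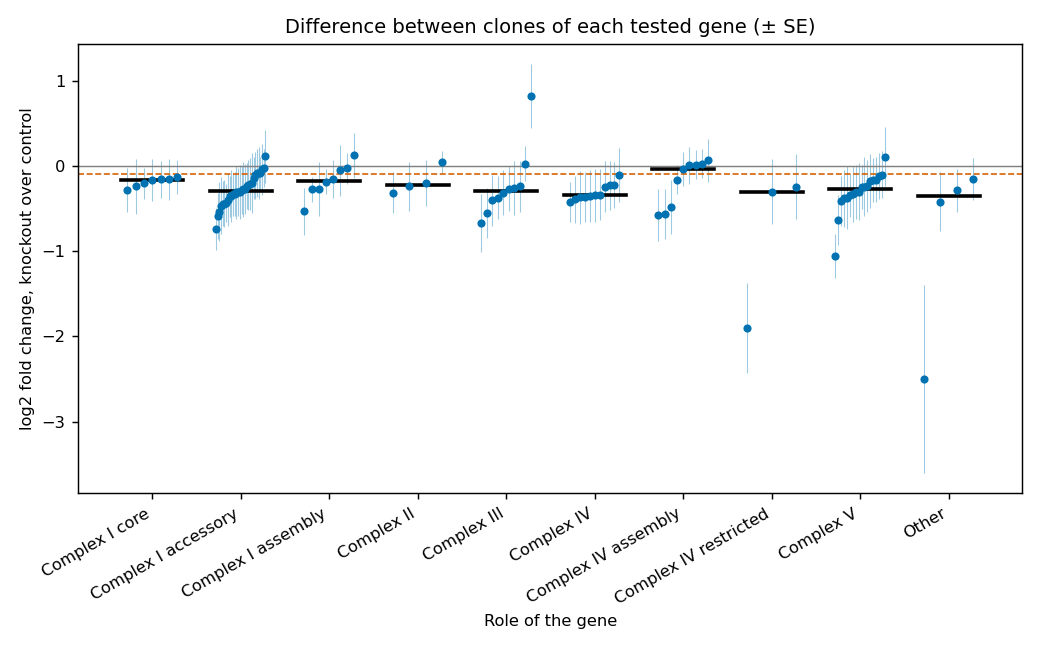
Log2 fold change of each tested member (knockout over control, points, with its standard error as a bar), grouped by role. "Other" holds ATP5IF1, COX7A2L and the 2 readthrough genes, black lines are group medians, and the dashed line is the median of tested protein-coding rows (-0.09). Most points lie just below 0 within about their standard error, and the complex IV assembly factors centre at -0.04.

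The medians by role spanned a narrow range. The 7 core subunits of complex I, which carry its redox centres, had a median log2 fold change of -0.16, and all 7 were below 0. Among the 30 accessory subunits of complex I the median was -0.30, with 29 below 0. The 4 genes of complex II had a median of -0.22, the 10 of complex III -0.29, the 11 general subunits of complex IV -0.34 and the 18 of complex V -0.28. The 10 and the 18 count the low rows UQCRHL and ATP5MGL. The highest log2 fold change was 0.81 in complex III and 0.11 in complex V. Assembly factors help to build the complexes without staying in them. Their median was -0.17 for the 8 complex I factors and -0.04 for the 9 complex IV factors. The medians of these groups without control 3 lay between -0.09 and 0.05. None of the role groups had a member past the limma threshold, and differences between the groups were not tested.

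The libraries themselves differed more than the clones. Taking each member's deviation from its own mean on the log2 scale, the median member stood at 0.06, 0.05, 0.86 and -0.31 in control 1 to 4. In knockout 1 to 5 it stood at -0.31, 0.04, 0.39, -0.40 and -0.29. Control 3 was thus the highest library by far, knockout 3 the next, and the remaining libraries of both clones overlapped. Control 3 held the highest value of all 9 libraries for 92 of 104 members (88.5%), against 29.5% of all tested rows and 49.2% of protein-coding rows. Knockout 3 was the highest knockout library for 90 members. The median protein-coding row moved the same way with smaller steps, at 0.38 in control 3 and 0.10 in knockout 3. After scaling on protein-coding rows, the 80 subunits still stood at 0.50 in control 3 and 0.31 in knockout 3, while the 17 assembly factors stood at 0.10 and 0.09. Control 3 also had the highest coding share of reads. Knockout 5 and knockout 4 came next at 47.5% and 43.5%, where the median member stood at -0.29 and -0.40. Knockout 3 held 42.1%. The part of the coding share in these values was not tested.

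**Figure D2:**
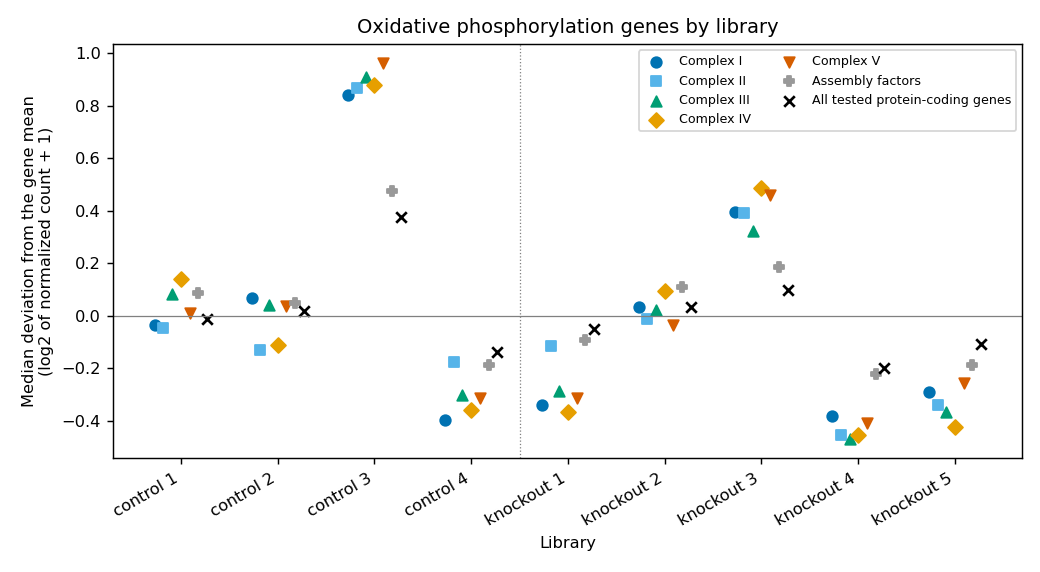
Median deviation of the members of each complex from their own mean over 9 libraries (log2 of normalized count + 1), by library, with assembly factors and all tested protein-coding rows (crosses) for reference. All 5 complexes are highest in control 3 and raised in knockout 3, and the assembly factors follow with smaller steps.

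As a share of protein-coding normalized counts, the members together took 1.83%, 1.75%, 2.08% and 1.68% in control 1 to 4. In knockout 1 to 5 they took 1.60%, 1.76%, 2.04%, 1.61% and 1.61%. The replicate 3 libraries of both clones held the highest share in their clone, and the 2 clones overlapped. The mean was 1.84% ± 0.176 (SD, n = 4) in the control clone and 1.72% ± 0.190 (SD, n = 5) in the knockout clone. Complex V took 0.541% ± 0.0679 in control and 0.514% ± 0.0593 in knockout libraries, complex I 0.536% ± 0.0525 and 0.512% ± 0.0528, and complex IV 0.449% ± 0.0516 and 0.411% ± 0.0638. Complex III took 0.154% ± 0.0162 and 0.135% ± 0.0120, and complex II, the smallest, 0.0347% ± 0.0034 and 0.0351% ± 0.00265. The assembly factors took 0.0887% ± 0.00311 and 0.0852% ± 0.00317. Among the 5 complexes, only the difference in complex III was larger than the SD of either clone, and its libraries overlapped. The difference in assembly factors was also larger than either SD, and its libraries overlapped as well.

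In complex I, the core subunits carry the flavin and the iron-sulfur clusters. NDUFS1, the largest core subunit, measured 581, 595, 1081 and 613 normalized counts in control 1 to 4 and 604, 636, 802, 517 and 573 in knockout 1 to 5. The clones overlapped, and only control 3 stood clear of the other libraries. The log2 difference was -0.16 (SE 0.21, limma adjusted p = 0.85), and without control 3 it was 0.06. NDUFV1, the flavoprotein subunit that accepts electrons from NADH, measured 681, 789, 1048 and 662 in control and 698, 776, 799, 557 and 598 in knockout libraries. Its log2 difference was -0.20 (SE 0.18, limma adjusted p = 0.80). Control 3 was again the highest library, while 2 knockout libraries lay below all controls.

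NDUFB9, an accessory subunit of the membrane arm (chromosome 8, 124539101 to 124580648), had the largest difference among complex I subunits. It measured 1287, 1617, 2315 and 1136 normalized counts in control libraries and 672, 953, 1312, 791 and 960 in knockout libraries. All knockout libraries but knockout 3 lay below every control library. The log2 difference was -0.74 (SE 0.25), which did not pass (limma adjusted p = 0.38, and 0.13 with the replicate block). Without control 3 the log2 fold change was still -0.54. Its exons overlap TATDN1 and MTSS1, whose own levels differed by -0.02 and 0.18 on the log2 scale. NDUFB1, a small accessory subunit and the complex I gene with the most counts per kb, measured 2729 ± 1130 (SD, n = 4) and 2174 ± 611 (SD, n = 5) normalized counts (log2 difference -0.29, SE 0.28).

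Against this tilt, NDUFB4, another membrane-arm subunit, had the only positive fold change among the 30 accessory subunits. Its control libraries measured 3531, 2463, 4996 and 2109 normalized counts, and its knockout libraries 2718, 4141, 5257, 2686 and 2605. Knockout 3, not control 3, was its highest library, and the clones overlapped throughout (log2 difference 0.11, SE 0.31). Among the 8 complex I assembly factors, NDUFAF3 was the 1 above 0. It measured 307, 256, 380 and 193 against 303, 337, 456, 211 and 248 (log2 difference 0.12, SE 0.26), and its exons overlap DALRD3. NDUFC2-KCTD14, a readthrough of the accessory subunit gene NDUFC2 into its neighbour, measured 23.4, 45.1, 57.4 and 19.9 normalized counts in control libraries. In the knockout libraries it measured 0, 24.8, 12.8, 21.7 and 0. Its reads cannot be separated with certainty from those of NDUFC2, which stood at 3236 ± 1642 (SD, n = 4) and 2175 ± 584 (SD, n = 5).

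Complex II is succinate dehydrogenase, an enzyme of the citric acid cycle as well as of the respiratory chain. SDHA, the flavoprotein that oxidises succinate, was the steadiest of the 98 members that averaged 100 or more normalized counts. It measured 630, 667, 783 and 630 in control libraries and 754, 640, 745, 741 and 623 in knockout libraries. The SD over all 9 libraries was 0.13 on the log2 scale, where the median of the 98 members was 0.46. Its log2 difference was 0.05 (SE 0.13, limma adjusted p = 0.92). The other 3 subunits did not share this flat profile. SDHB, the iron-sulfur subunit, measured 857, 783, 1694 and 687 against 692, 983, 1133, 609 and 677 (log2 difference -0.24, SE 0.29). SDHC and SDHD, the membrane anchors, had log2 fold changes of -0.31 (SE 0.24) and -0.20 (SE 0.27), with control 3 at 1257 and 1677 normalized counts. Without control 3 the log2 differences of SDHB, SDHC and SDHD were 0.04, -0.09 and 0.06. Rows of pseudogenes named after SDHA held 30.2% as many normalized counts as SDHA itself, so how reads were divided among those copies bears on its level.

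**Figure D3:**
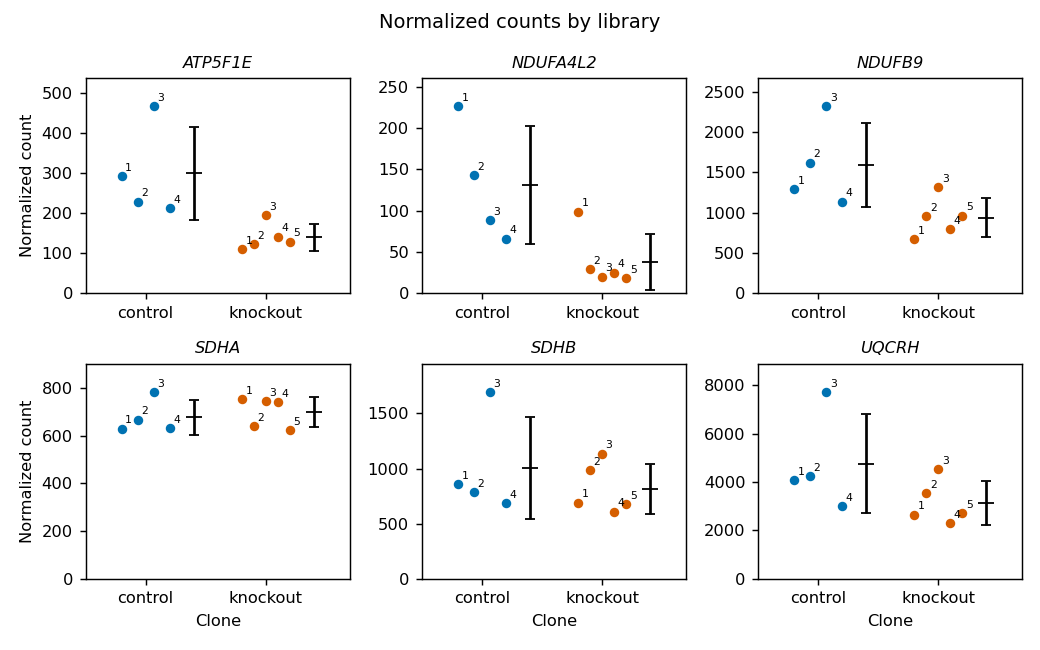
Normalized counts of 6 members in each library (points, numbered by replicate), with the mean and SD of each clone as a bar. ATP5F1E is the member whose clones do not overlap, SDHA varies least, and SDHB and UQCRH have their highest value in control 3.

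Complex III passes electrons from ubiquinol to cytochrome c. CYC1, its cytochrome c1, measured 778, 848, 1543 and 779 normalized counts in control libraries and 710, 970, 1105, 581 and 660 in knockout libraries (log2 difference -0.27, SE 0.26). UQCRFS1, the Rieske iron-sulfur protein, measured 461, 477, 1045 and 396 against 421, 541, 668, 339 and 416 (log2 difference -0.24, SE 0.30). In both genes control 3 stood well above the rest and the other libraries of the clones overlapped. Without it the log2 fold changes were -0.03 and 0.07. The core proteins UQCRC1 and UQCRC2 had log2 fold changes of -0.31 (SE 0.26) and 0.03 (SE 0.20). Pseudogene rows named after UQCRFS1 held 29.8% as many counts as the gene.

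UQCRQ, a ubiquinone-binding subunit of complex III, measured 1227, 1147, 2638 and 1036 normalized counts in control and 732, 961, 1588, 632 and 751 in knockout libraries. Knockout 3 lay above 3 of the controls, and the other knockout libraries lay below every control. The log2 difference was -0.67 (SE 0.34, limma adjusted p = 0.65), and -0.36 without control 3. UQCRH, the hinge protein that contacts cytochrome c1, measured 4078, 4249, 7715 and 3008 against 2642, 3545, 4519, 2289 and 2708 (log2 difference -0.56, SE 0.29, limma adjusted p = 0.66), and -0.29 without control 3. UQCRHL, an intronless copy of UQCRH, went the other way at a far lower level. It measured 11.7, 7.77, 4.56 and 6.32 in control libraries and 15.3, 12.4, 10.5, 16.4 and 13.3 in knockout libraries (log2 difference 0.81, SE 0.37, limma adjusted p = 0.59). It was chosen for mention after its value was seen.

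Complex IV, cytochrome c oxidase, hands electrons to oxygen. All 11 general subunits were below 0, at log2 fold changes between -0.43 and -0.11, and 0 passed. COX4I1, the largest nuclear-encoded subunit, measured 3482, 3183, 6083 and 2698 normalized counts in control libraries and 2450, 3255, 4257, 2197 and 2289 in knockout libraries. The clones overlapped (log2 difference -0.39, SE 0.28, limma adjusted p = 0.76), and without control 3 the log2 difference was -0.15. COX5A measured 4035, 3092, 6772 and 2719 against 2711, 3940, 4824, 2755 and 2830 (log2 difference -0.23, SE 0.29). COX6A1 had the lowest value of the 11, -0.43 (SE 0.24, limma adjusted p = 0.68). NDUFA4, named for complex I but now counted as a complex IV subunit, was the nearest to 0 of the 11. It measured 2121, 1445, 3264 and 1622 against 2006, 2080, 3088, 1406 and 1234 (log2 difference -0.11, SE 0.31), and 0.04 with the replicate block. COX7A2L, which joins complexes III and IV into supercomplexes, had a log2 fold change of -0.15 (SE 0.25).

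The assembly factors of complex IV include copper chaperones and haem enzymes. COX19, a copper-handling factor, measured 183, 211, 122 and 133 normalized counts in control libraries and 226, 222, 135, 128 and 142 in knockout libraries. Control 3 was its lowest library, and the clones overlapped (log2 difference 0.06, SE 0.25). It overlaps exons of ADAP1. Of the 9 factors, 5 were below 0 and 4 above, and the lowest was at -0.58.

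Several complex IV subunits have a second copy known from heart, muscle, lung or testis, and each stood far below its general copy. Levels between genes are given as normalized counts per kb of transcript, as the median over 9 libraries. COX4I2 stood at 4.60 per kb where COX4I1 stood at 4496, and COX6A2 at 21.2 where COX6A1 stood at 8633. COX6B2 stood at 48.4 per kb and COX6B1 at 6015, and COX7A1 at 45.1 and COX7A2 at 3580. COX7B2 stood at 10.05 per kb and COX7B at 697, and COX8C at 20.4 and COX8A at 5989. In each pair the highest library of the restricted copy lay below the lowest library of the general copy. COX4I2, COX6A2, COX7B2 and COX8C were the 4 members with too few reads to test. Transcript lengths are medians over annotated isoforms, so levels per kb are approximate for genes with long variants.

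NDUFA4L2 is the hypoxia-responsive paralogue of NDUFA4 (chromosome 12, 57234903 to 57240715). At 55.8 per kb it stood far below NDUFA4, at 942. It measured 226, 143, 88.4 and 65.9 normalized counts in control libraries and 98.7, 29.3, 19.8, 24.7 and 18.4 in knockout libraries. Knockout 1 lay above the 2 lowest controls, and the other 4 knockout libraries lay below every control. The log2 difference was -1.91 (SE 0.53), the largest among members that averaged 50 or more normalized counts, and did not pass (limma adjusted p = 0.22). With the replicate block the limma adjusted p was 0.12, and with 1 library left out it ran from 0.051 to 0.50. Control 3 was not raised for this gene. Its exons overlap SHMT2, which had a log2 fold change of -0.39 (SE 0.24) and was highest in control 3.

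Complex V joins a catalytic head to a membrane rotor. ATP5F1A, its alpha subunit, measured 5200, 6810, 9897 and 4489 normalized counts in control libraries and 4810, 5794, 6331, 3948 and 4322 in knockout libraries (log2 difference -0.34, SE 0.25). ATP5F1B, the catalytic beta subunit, measured 6125, 6134, 11316 and 5199 against 5691, 6467, 7880, 4699 and 4637 (log2 difference -0.25, SE 0.26). For both the clones overlapped, and the beta subunit stood at -0.01 without control 3. ATP5PD, a stalk subunit, measured 4014, 3584, 6376 and 2420 against 2223, 2698, 3780, 1930 and 2135. Its log2 fold change of -0.64 (SE 0.29, limma adjusted p = 0.59) was -0.40 without control 3. ATP5IF1, which blocks ATP hydrolysis by the enzyme, had a log2 fold change of -0.42 (SE 0.35).

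The rotor ring is built from subunit c, which 3 genes encode with the same mature protein. Per kb, ATP5MC2 stood at 2177 (1995 to 4384 over 9 libraries), ATP5MC1 at 1485 (1046 to 3063) and ATP5MC3 at 627 (483 to 1555). These ranges overlap between neighbours, so only the order of the medians is given. Their log2 fold changes were -0.12 (SE 0.27), -0.41 (SE 0.29) and -0.30 (SE 0.33). ATP5MF, a membrane subunit with the highest level per kb of all members at 8877, had a log2 fold change of -0.18 (SE 0.32) and shares exons with the readthrough gene ATP5MF-PTCD1.

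ATP5F1E, the epsilon subunit of the central stalk (chromosome 20, 59025467 to 59032382), was the only member whose libraries did not overlap between clones. That is 0.962% of the tested members, against 3.95% of all tested rows, 2.6% with the knockout clone lower. It measured 291, 228, 466 and 212 normalized counts in control 1 to 4 and 109, 122, 194, 141 and 128 in knockout 1 to 5. Even knockout 3, the highest of its clone, lay below control 4, the lowest of its own. The means were 299 ± 116 (SD, n = 4) and 139 ± 33.1 (SD, n = 5). Over all 9 libraries the gene averaged 210 normalized counts, and among complex V subunits only ATP5MGL, at 21.0, averaged less. At 70.2 per kb it ranked 92 of the 108 members. That level uses a length of 2771.5 bases, a median over annotated isoforms, so level and rank are approximate. Whether this row holds all reads of the gene was not measured. The log2 difference was -1.06 (SE 0.26, limma adjusted p = 0.17), and it stayed between -1.20 and -0.82 with any 1 of the 9 libraries left out. It passed in DESeq2 on the recovered reads (log2 difference -1.08, DESeq2 adjusted p = 0.0081) and in the authors' deposited table (DESeq2 adjusted p = 0.0059), in which 2.05% of rows with an adjusted p passed and 1.53% were lower. The gene overlaps exons of TUBB1, which averaged 4.64 ± 3.45 and 2.49 ± 0.985 normalized counts, too few to test.

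The stretch before its start site is shown because this is the 1 member with separate clones. It covers bases 250 to 51 upstream of the RefSeq start, chr20:59032386-59032585 on the minus strand (RefSeq, GRCh38.p14). Capitals mark CCAAT boxes, read as CCAAT or its reverse complement.

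ATP5F1E: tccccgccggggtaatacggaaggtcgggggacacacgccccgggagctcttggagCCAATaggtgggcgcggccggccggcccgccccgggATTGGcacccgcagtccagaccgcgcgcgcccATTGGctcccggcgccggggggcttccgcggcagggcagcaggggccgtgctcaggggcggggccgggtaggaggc

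These are 3 matches, and a window of 250 bases before the start holds 4 of them. At least 4 matches were found in 0.93% of the 27305 RefSeq windows of that length, among them those of 3 members. Besides ATP5F1E these are ATP5MC1 and NDUFS8, with log2 fold changes of -0.41 and -0.16. A match is a description of letters and not a site of binding.

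RefSeq promoter windows could be matched for 86 of the 108 members. The letters GCGCA and GCGC set 1 base apart, a core of the NRF1 site known from respiratory genes, stood on either strand in 17 of 86 (19.8%), against 5.53% of all windows and 7.65% of those of protein-coding genes. The ETS core CCGGAAG stood in 20 (23.3%), against 8.82% and 11.8%. The share with CCAAT was 32.6%, near the 33.0% of all windows, and the share with TATAAA was 9.30%, against 11.1%. The YY1 core AAGATGGCG stood in 1. Members with the NRF1 letters had a median log2 fold change of -0.19 (16 tested) and those without -0.28 (67 tested), a difference that was not tested. With and without the ETS core the medians were -0.29 (20 tested) and -0.26 (63 tested). For CCAAT they were -0.35 (26 tested) and -0.24 (57 tested), and these differences were not tested either.

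The NRF1 match, in capitals with up to 10 bases on each side, is shown for the described members that hold it, to set the flat SDHA beside genes with other profiles. Where a window holds several matches, as SDHA with 4 and NDUFB4 with 2, the most upstream is shown. All are 5′ to 3′ on the gene's strand from RefSeq, GRCh38.p14. The positions are chr5:218144-218173 (SDHA, plus strand), chr11:112086753-112086782 (SDHD, plus), chr3:48609674-48609703 (UQCRC1, minus), chr19:29213163-29213192 (UQCRFS1, minus), chr3:120596167-120596196 (NDUFB4, plus) and chr14:93347157-93347181 (COX8C, plus).

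SDHA: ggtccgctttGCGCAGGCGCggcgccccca

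SDHD: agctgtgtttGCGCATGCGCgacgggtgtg

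UQCRC1: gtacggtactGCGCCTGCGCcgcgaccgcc

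UQCRFS1: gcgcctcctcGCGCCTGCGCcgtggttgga

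NDUFB4: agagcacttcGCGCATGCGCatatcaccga

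COX8C: cgtggctgggGCGCCTGCGCaaacc

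The same letters thus precede SDHA, which hardly varied between libraries, SDHD and UQCRFS1, which were highest in control 3, and COX8C, which had too few reads to test.

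The median spread between libraries differed by role, which was not tested. Among the 98 members that averaged 100 or more normalized counts, the SD of the log2 values over 9 libraries ran from 0.13 to 0.68, and the median ratio of the highest to the lowest library was 2.63. Subunits of complex V had a median SD of 0.50, of complex III 0.49, of complex IV 0.48 and accessory subunits of complex I 0.47. Core subunits of complex I had 0.36, complex I assembly factors 0.37 and complex IV assembly factors 0.31. The ranges overlapped, at 0.21 to 0.56 for complex IV assembly factors and 0.41 to 0.52 for complex IV subunits. ATP5F1E had the highest SD of all, with UQCRQ next.

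Transcript length moved with both quantities. Across the 98 members, Spearman's rho with transcript length was -0.30 for the SD and 0.34 for the log2 fold change, as a description over genes that share the same 9 libraries. The 48 members under 1000 bases had a median log2 fold change of -0.31, where 595 other protein-coding rows of that length had -0.24. Members of 1000 to 2000 bases had -0.24, against -0.16 for other rows. The 27 members over 2000 bases had -0.24, against -0.08. In control 3 the median deviation was 0.89 for members under 1000 bases and 0.81 for other rows of that length, but 0.73 and 0.38 over 2000 bases. Lengths are medians over annotated isoforms, so genes with long variants may stand in too long a class. ATP5F1E, at 2771.5 bases, and COX7B, at 2471, were counted as over 2000 bases. How this bears on the values of that class was not tested, nor was the part of transcript length in the library differences.

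**Figure D4:**
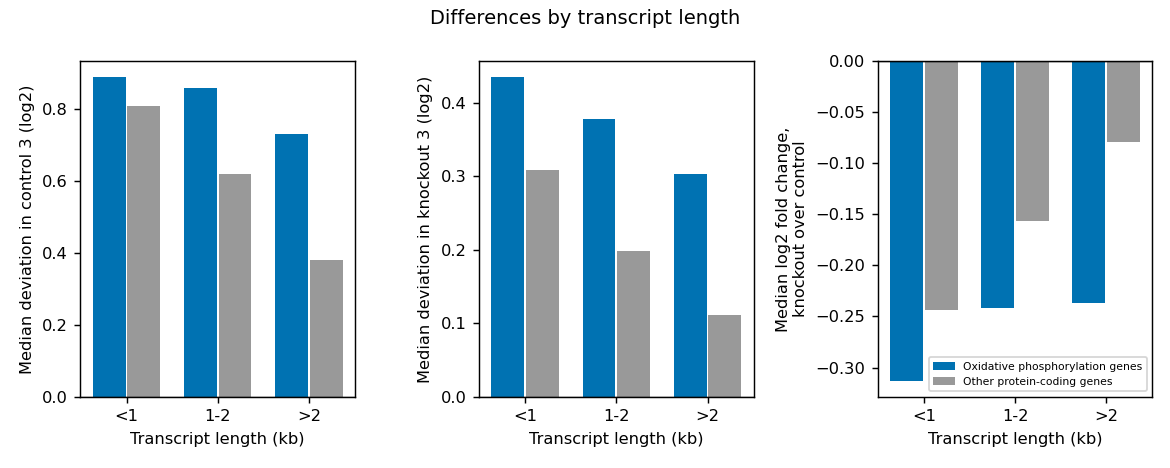
Median deviation in control 3, median deviation in knockout 3 and median log2 fold change of members (blue) and other protein-coding rows (grey) that averaged 100 or more normalized counts, by transcript length. In control 3 the 2 sets stand at 0.89 and 0.81 under 1 kb and at 0.73 and 0.38 over 2 kb. Lengths are medians over annotated isoforms, so the classes are approximate for genes with long variants.

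The rest of the pathway gave few calls. Of 37 tested assembly factors outside the name rule, 0 passed in limma, edgeR or DESeq2, 29 were below 0, and their median log2 difference was -0.18. NUBPL, which inserts iron-sulfur clusters into complex I, was higher in the knockout clone in the authors' deposited table (DESeq2 adjusted p = 0.024). It averaged 129 ± 21.9 (SD, n = 4) and 188 ± 9.45 (SD, n = 5) normalized counts with no overlap (log2 difference 0.55, SE 0.15, limma adjusted p = 0.20). NUBPL was named after its value was seen, as the 1 gene of the 37 with either trait. Of all rows with an authors' adjusted p, 2.05% passed, and 3.95% of all tested rows did not overlap, in either direction. Of 14 genes for electron carriers and ubiquinone synthesis, 0 passed, and the median was -0.14. CYCS, the cytochrome c that links complexes III and IV, stood at -0.39 (SE 0.31). Of 14 genes of mitochondrial transcription and its regulators, 0 passed, and the median was -0.16. Among them TFAM, which packages mitochondrial DNA, stood at -0.36 (SE 0.28), NRF1 at -0.20 (SE 0.17) and GABPA, an ETS factor, at 0.04 (SE 0.18).

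The 13 subunits encoded in mitochondrial DNA did not follow the nuclear ones across libraries. Their median deviation was -0.10, 0.58, 1.35 and 0.03 in control 1 to 4 and -2.18, -0.36, 0.00, -0.33 and 0.80 in knockout 1 to 5. Knockout 1 was thus far below the rest and knockout 5 second to control 3, although the nuclear-encoded members stood at -0.31 and -0.29 in these 2 libraries. All 13 had a negative log2 fold change, with a median of -0.89, and 0 passed in limma. That median was -0.63 without control 3 and -1.17 with the replicate block. Across the 13, standard errors had a median of 0.55, nearly 2 times that of the nuclear-encoded members (0.28). How the spread of mitochondrial RNA bears on the nuclear-encoded genes was not tested.

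Copies of these genes elsewhere in the genome took few reads. The table has 183 pseudogene rows named after 53 members, of which 46 were tested and 0 passed in limma. Their median log2 fold change was 0.38, opposite in sign to the members'. Above 0 lay 14163 of all 27777 tested rows but only 5397 of the 14752 protein-coding rows. Rows that are not protein-coding thus leaned upward in general, and the sign is not particular to these copies. They held over 10% of the parent gene's counts for SDHA, UQCRFS1, COX6C and NDUFAF2, at 30.2%, 29.8%, 20.5% and 16.3%. How reads were divided between these 4 genes and their copies was not measured.

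Most tested markers of cell types also had negative fold changes. Of the 8 pluripotency markers 7 were below 0, with a median log2 fold change of -0.46, and of -0.26 without control 3. Their median deviation was 0.39 in control 2 and 0.92 in control 3, where the members stood at 0.05 and 0.86. Among the tested markers of other cell types, 2 of 2 neural, 4 of 5 fibroblast and 1 of 2 muscle markers were below 0, as was the 1 tested mesendoderm and endoderm marker. No marker passed in limma. Summed levels in control and knockout libraries were 36011 to 77115 and 31378 to 46889 normalized counts for pluripotency, 426 to 925 and 351 to 511 for neural markers. For fibroblast markers they were 3358 to 6008 and 2937 to 4626, for muscle markers 145 to 211 and 90.8 to 148, and for mesendoderm and endoderm markers 20.8 to 38.3 and 8.85 to 23.9. TNNT2, a cardiac troponin gene named after its value was seen, averaged 142 ± 31.8 (SD, n = 4) and 61.5 ± 24.5 (SD, n = 5) normalized counts and its clones did not overlap. Its log2 difference was -1.26 (SE 0.30, limma adjusted p = 0.16). The gene passed in DESeq2 (DESeq2 adjusted p = 0.019) and in the authors' deposited table (DESeq2 adjusted p = 0.012). In either direction, 3.95% of all tested rows did not overlap, DESeq2 called 2.13%, and 2.05% of rows with an authors' adjusted p passed. The clones of MIXL1, the tested mesendoderm and endoderm marker, also did not overlap, at 14.45 to 24.86 and 6.76 to 13.97 normalized counts. Nor did those of the neural marker ZIC1, with too few reads to test, at 6.32 to 23.7 and 0.75 to 4.79. Both were named after their values were seen. NES, an intermediate filament gene of neural progenitors, stood at -0.64 (SE 0.23). The collagen gene COL1A1 stood at -0.78 (SE 0.28) and PDGFRB, a growth factor receptor gene, at -0.72 (SE 0.24). These 3 were also named after their values were seen, and each had an unadjusted limma p under 0.05. The pluripotency marker TDGF1, at -0.92 (SE 0.31), did so too. The other tested neural, fibroblast and muscle markers were OTX1 at -0.50, THY1 at -0.23, COL1A2 at -0.01, DCN at 0.12 and ACTN2 at 0.17. The part of these markers in the members' values was not tested.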

How the data were processed

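The authors deposited 1 table with a signal value per gene and library, that is, counts per gene after division by a library's size factor (normalized counts). Per the submitters' processing notes, fastp, kallisto, DESeq2 and hg38 were used. The annotation release and strand setting were not given in the sources used here. Beside these values, the deposited table holds the authors' log2 fold change, test score and p-value.

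Within a tolerance of 1e-06, 100% of the values were whole multiples of the value of 1 read, so reads were recovered. Rows were kept by edgeR's filterByExpr at a minimum count of 10 (27777 rows). The main test was limma (3.58.1, under R 4.3.3) on log2(value + 1), allowing for a trend of variance with the mean, group as the only term, adjusted by Benjamini-Hochberg over all 27777 rows at 0.05. For low genes such log2 fold changes can lie on either side of those from the count tests. COX6B2 was at -0.24 in limma and -0.34 in DESeq2. NDUFC2-KCTD14, with values of 0 in the knockout clone, was at -2.50 in limma and -1.59 in DESeq2. The test was checked on simulated data. Alternatives were edgeR (4.0.16) and DESeq2 (1.42.0) on the reads, other scalings, pseudocounts and filters, the replicate block and leaving out each library.

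A batch tag in the labels holds the replicate number, so equal numbers were taken as pairs. After removing each clone's mean, paired libraries correlated over rows at 0.07 (replicate 1), 0.02 (2), 0.25 (3) and 0.33 (4). Knockout 5 has no partner, so the block fit gives the same fold changes as the fit without it.

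Roles and gene lists were set by hand. The members and lists were chosen with earlier results of these data known. Genes named are a fixed set of core subunits and paralogues, the highest per kb of each complex, the 5 largest differences each way at a mean of 50 or more, and members at an unadjusted p under 0.05 (up to 6 each way). Positions and transcript lengths (median of well-supported coding isoforms) came from GENCODE 29, and promoter windows from RefSeq.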

Additional observations from a re-analysis of the deposited data

Results flagged for a closer look

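The highest or lowest library of a clone was set against the others of that clone for 114 sets of values, and 13 stood apart by Dixon's criterion. Chance flags about 1 in 20 groups, and values of different genes in the same library are not independent. Control 3 was the library standing apart in 10 of the 13. It held 11316 normalized counts of ATP5F1B, 1856 of ATP5MC1, 1543 of CYC1 and 1081 of NDUFS1. For complex II it held 1694 of SDHB, 1257 of SDHC, 1677 of SDHD and 5411 over the 4 genes summed. For complex III it held 1045 of UQCRFS1 and 2638 of UQCRQ, each far above the other 3 control libraries.

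The other 3 lay elsewhere. Control 1 was high for COX6A2 at 28.7 normalized counts, and knockout 1 was high for NDUFA4L2 at 98.7. The assembly factors took 0.0934% of protein-coding normalized counts in control 2, above the other controls.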

How the results depend on the processing

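Limits are 1 clone per genotype, passages as replicates and a spread between libraries that left a median standard error of 0.28 on the log2 scale. The count of members called was 0 under every alternative but DESeq2 (1). Over all rows 150 were called, 593 with DESeq2, 43 with the replicate block, and 79 to 186 with 1 library left out. The members' median log2 fold change stayed below 0 in all 18 alternatives, at -0.22 with the replicate block and between -0.41 and -0.04 with 1 library left out. The block changed no call of a member. Of the 39 tested genes that are described, 24 kept their sign throughout and none but ATP5F1E in DESeq2 passed the threshold.

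Quantile normalization turned ATP5F1B to 0.070, ATP5MC2 to 0.19, ATP5MF to 0.12, COX5A to 0.042, COX7A2L to 0.027 and NDUFA4 to 0.093, and the replicate block turned NDUFA4 to 0.040. With 1 library left out, log2 fold changes that crossed 0 ran from -0.075 to 0.34 for NDUFB4, -0.17 to 0.17 for UQCRC2, -0.27 to 0.11 for ATP5MC2, -0.48 to 0.017 for ATP5MC3, -0.38 to 0.10 for ATP5MF, -0.061 to 0.20 for COX19, -0.40 to 0.035 for COX5A, -0.34 to 0.025 for COX7A2L, -0.29 to 0.13 for NDUFA4, -0.25 to 0.055 for NDUFS1, -0.39 to 0.041 for SDHB, -0.33 to 0.062 for SDHD, -0.40 to 0.067 for UQCRFS1 and -0.048 to 0.28 for NDUFAF3. The cause was not tested.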
